A study of Caenorhabditis elegans with 6 samples.

Results

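The peroxins are the proteins that build peroxisomes, and 10 genes for them were followed here in *Caenorhabditis elegans* with a mutation in the gene of the nuclear hormone receptor NHR-49. They are *prx-1*, *prx-2*, *prx-3*, *prx-5*, *prx-6*, *prx-10*, *prx-11*, *prx-12*, *prx-13* and *prx-19*, taken by symbol from the 46739 genes listed. Whole animals were compared in 2 groups of 3 biological replicates. The wild-type group was strain PMD121 and the mutant group was strain PMD122, which carries *nhr-49(nr2041)*, a deletion allele of *nhr-49*. Both strains were kept as F2 homozygotes from a cross of N2 to STE68, so each genotype is 1 strain. All animals were grown at 20°C on bacteria carrying the empty RNAi vector and taken as late L4 larvae, and polyA RNA of all tissues was sequenced. In such RNA, fewer cells of a type and less RNA per cell cannot be told apart.

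Peroxisomes break down very long chain and branched fatty acids, make ether lipids and, in worms, shorten the side chains of ascaroside pheromones. Their matrix enzymes are made in the cytosol and imported folded. The receptor PRX-5 binds a short signal at the end of the enzyme and docks at the membrane on PRX-13 and PRX-14. A ligase of the RING proteins PRX-2, PRX-10 and PRX-12 then ubiquitinates the receptor, and the AAA ATPases PRX-1 and PRX-6 pull it out of the membrane for another round. PRX-3 and PRX-19 bring in the membrane proteins themselves, and PRX-11 shapes the membrane for growth and division. Most of these steps were worked out in yeast and mammalian cells. NHR-49 switches on genes of fatty acid β-oxidation and desaturation in worms.

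Levels are given in RPKM, reads scaled to the length of the gene and to the reads of the library. This scaling did not level the libraries. The median log2(RPKM + 1) of the genes tested was 3.585, 3.505 and 3.582 in the wild-type libraries. In the mutant libraries it was higher, at 3.715, 3.634 and 3.701. Medians of the peroxins with library medians set equal are therefore also given below. Implied library totals ran from 24523159 to 30183162 reads. All 10 genes passed the filter on low values, which asked for 1 RPKM or more in 3 or more libraries. They had 65 to 3045 recovered reads per gene and library. The exact Poisson 95% interval was 50.2 to 82.8 for the lowest of these read counts and 2938 to 3155 for the highest, and covers counting error only. *nhr-49* itself was at 39.4, 40.8 and 37.8 RPKM in wild-type animals and 26.1, 22.1 and 26.1 RPKM in the mutants, and its log2 fold change was -0.65 (SE 0.11, limma adjusted p = 0.016). That call was lost in 6 of 16 alternative settings, those with a replicate block and without each library other than mutant replicate 1. Its RPKM cover the whole gene, and which bases the allele removes was not found in the sources read, so the level is no full check of the genotype. Wild-type replicate 2 and mutant replicate 1 stood away from the other 4 along principal component 2, which carried 22.4% of the variance. Summed levels of some tissue markers stood apart in 1 or both of these libraries. The summed level of 3 adult cuticle collagens was 62.02 RPKM in wild-type replicate 2 against 312 and 368 RPKM in the other wild-type libraries. In mutant replicates 1, 2 and 3 it was 117, 149 and 138 RPKM, all below those other wild-type libraries, and mutant replicate 1 did not stand far apart. The summed level of 5 germline and oocyte markers was 244 RPKM in wild-type replicate 2 against 363 and 386 RPKM in the other wild-type libraries. It was 142.1 RPKM in mutant replicate 1 against 276 and 366 RPKM in the other mutant libraries. The summed level of 8 body wall muscle markers was 2921, 4265 and 3924 RPKM in the mutants and 4484, 4663 and 4426 RPKM in wild-type animals, lowest in mutant replicate 1 and with no overlap between genotypes. None of the 41 marker genes of 7 lists was at 0 in every library. By limma 0 of them passed the test between genotypes, 5 had an unadjusted p under 0.05, and limma voom on recovered reads called 0. The part of tissue makeup or stage in the results was not tested.

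In wild-type animals the membrane protein receptor gene *prx-19* was the most abundant peroxin transcript of the 10, at 71.9 ± 4.46 RPKM (SD, n = 3). It made up 40.1% of their summed level. *prx-3*, *prx-5* and *prx-11* followed at 19.5 ± 1.70, 17.2 ± 2.12 and 16.9 ± 1.98 RPKM. Their ranges overlapped each other, and all lay below *prx-19*. *prx-13*, *prx-10* and *prx-12* formed the next step at 13.3 ± 0.695, 12.98 ± 0.563 and 11.997 ± 2.00 RPKM, again with overlapping ranges. The ATPase gene *prx-6* was at 6.24 ± 0.0221 RPKM, and *prx-1* and *prx-2* were lowest at 4.67 ± 0.428 and 4.63 ± 0.387 RPKM, with overlapping ranges. By these values the 2 ATPase genes and the RING gene *prx-2* were the scarcest transcripts of the set. The level of *prx-2* carries a limit given below, because part of its exons is shared with another gene. In the mutants *prx-19* was again highest (83.8 ± 14.2 RPKM, 48.7% of the sum) and *prx-1* lowest (3.01 ± 0.348 RPKM). *prx-3* had rank 2 in wild-type animals and rank 5 in the mutants, where its range overlapped that of *prx-10* above it.

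**Figure D1:**
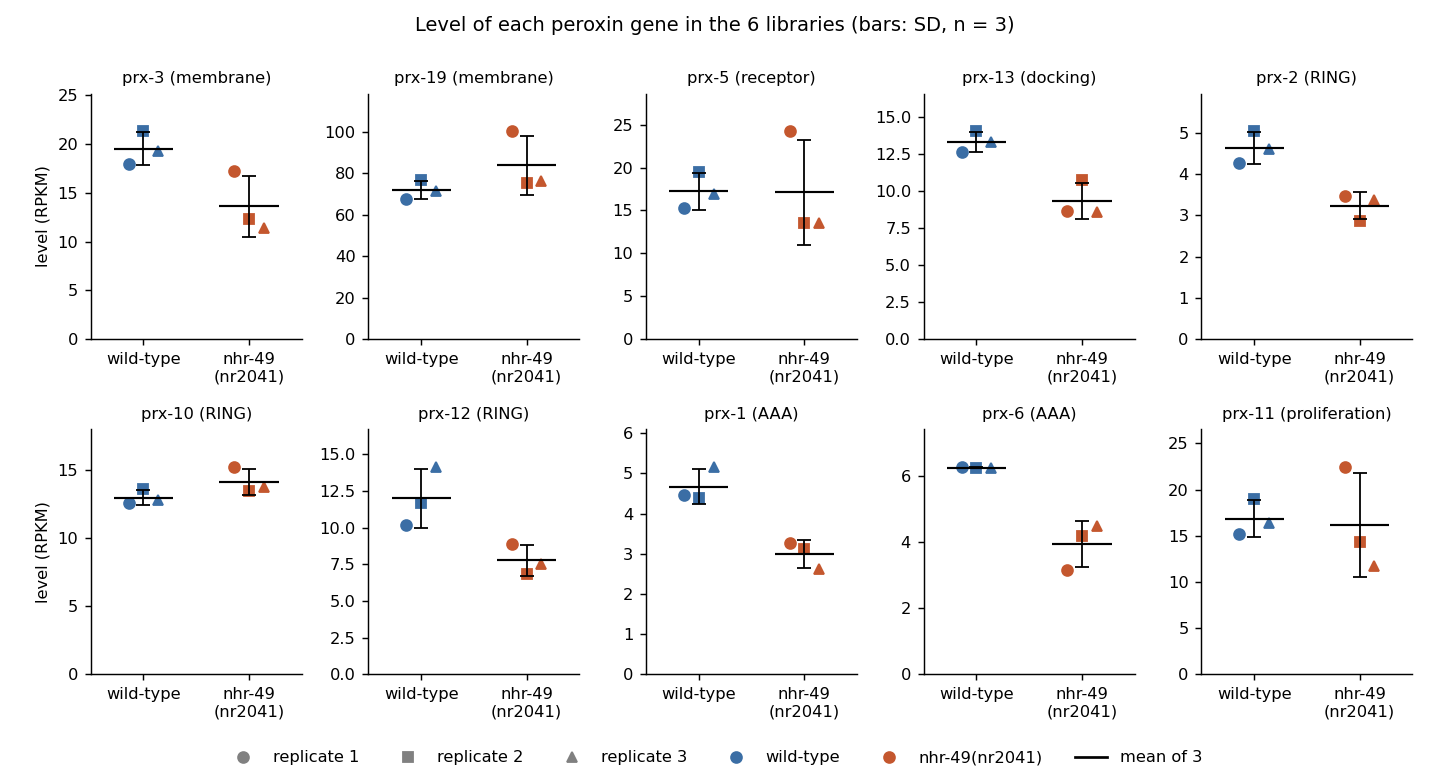
Level of each peroxin gene in RPKM on an axis from 0, with 1 point per library (circle, square and triangle for replicates 1, 2 and 3), the mean as a line and the SD as an error bar (n = 3 per genotype). For *prx-3*, *prx-13*, *prx-2*, *prx-12*, *prx-1* and *prx-6* the 3 mutant libraries lie below the 3 wild-type libraries, and *prx-5* and *prx-11* have mutant replicate 1 far above the other mutant libraries.

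The genotypes were then compared to ask whether the *nhr-49* mutation goes with a change in the transcripts of the machinery that makes peroxisomes. No peroxin gene passed limma over all genes, yet for 6 of 10 the 3 mutant libraries were all lower than the 3 wild-type libraries. Over all 13965 genes tested, 0.816% were called lower and 3.32% higher, 4.13% in all, at an adjusted p under 0.05. Among the peroxins the count was 0 in both directions, and limma voom on recovered reads also called 0. With no adjustment, 6 of them had p under 0.05, all of them lower, while 2.28% of all genes were lower and 10.9% higher at that threshold. This count was 2 without wild-type replicate 3, 3 without mutant replicate 3 and 8 without mutant replicate 1. Mutant libraries lay wholly below wild-type libraries for *prx-1*, *prx-2*, *prx-3*, *prx-6*, *prx-12* and *prx-13*, against 3.78% of all genes. They lay wholly above for none of the 10, against 17.6% of all genes. The median log2 fold change was -0.45 over the 10 peroxins and 0.10 over all genes, where 32.7% of genes were below 0. Adjusted p-values ran from 0.146 to 0.939. Of the 8 muscle markers, 6 also had mutant libraries wholly below wild-type libraries, and their median log2 fold change was -0.44. Without mutant replicate 1 it was -0.16 for these markers and -0.44 for the peroxins, and without wild-type replicate 2 as well it was -0.14 and -0.40. With library medians set equal, the median of all genes moved to -0.02 and that of the peroxins to -0.57, and after quantile normalization they moved to -0.04 and -0.61.

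The genes of membrane assembly, *prx-3* and *prx-19*, are taken first. *prx-3* encodes the membrane anchor on which PRX-19 docks with its cargo, and lies on chromosome X from 6110741 to 6112917 (WBcel235). It was at 17.9, 21.3 and 19.3 RPKM in wild-type animals and 17.2, 12.3 and 11.4 RPKM in the mutants. The genotypes did not overlap, but mutant replicate 1 came within 1 RPKM of the lowest wild-type library. Its log2 fold change was -0.50 (SE 0.17, limma adjusted p = 0.239). Without mutant replicate 1 it was -0.67 and passed the test (limma adjusted p = 0.037), as it did without wild-type replicate 2 and mutant replicate 1 together (log2 fold change -0.61, limma adjusted p = 0.0099).
*prx-19* encodes the soluble receptor and chaperone of membrane proteins, and lies on chromosome III from 8807482 to 8809295. It was at 67.7, 76.5 and 71.4 RPKM in wild-type animals and 100.1, 75.1 and 76.1 RPKM in the mutants. The genotypes overlapped, with mutant replicate 1 alone above the wild-type range. The log2 fold change was 0.21 (95% interval -0.12 to 0.53, limma adjusted p = 0.597).
Within each library, *prx-3* stood at 0.265, 0.278 and 0.270 of *prx-19* in wild-type animals and at 0.172, 0.164 and 0.149 in the mutants. The ratio was lower in all 3 mutant libraries, including mutant replicate 1. These ratios of RPKM do not depend on scaling between libraries. For the tests of all pairs 1 was added to each RPKM before the ratio was formed. The difference in log2 ratio of RPKM + 1 was -0.71, and it was -0.74 with 0.1 added (with 1 added, two-sided exact permutation p = 0.10, the smallest that 3 against 3 allows, and adjusted p = 0.167 over 5 pairs).

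The import receptor and docking genes form the next step. *prx-5* encodes the receptor for enzymes with the carboxy-terminal peroxisomal signal, the import route that *C. elegans* uses, and lies on chromosome II from 8704824 to 8706760. It was at 15.3, 19.5 and 16.9 RPKM in wild-type animals and 24.2, 13.5 and 13.5 RPKM in the mutants. Mutant replicate 1 was the highest of all 6 libraries and the other mutant libraries were the lowest, so the means were nearly equal while the mutant spread was wide. The log2 fold change was -0.05 with a 95% interval from -0.59 to 0.49 (limma adjusted p = 0.939), so the interval leaves room for a sizeable difference in either direction.
*prx-13* encodes a docking protein of the membrane, and lies on chromosome II from 7250151 to 7252015. It was at 12.6, 14.001 and 13.3 RPKM in wild-type animals and 8.65, 10.7 and 8.55 RPKM in the mutants, with no overlap, and it shares 39 annotated exon bases with *skpo-3* on the other strand. The mutant mean was 70.0% of the wild-type mean (log2 fold change -0.48, SE 0.14, limma adjusted p = 0.146). It had the lowest adjusted p of the 10. Without the 2 libraries that stood apart the log2 fold change was -0.40 (limma adjusted p = 0.136).
*prx-14*, the gene of the other docking protein, is not among the 10 and was added for this step. It was at 19.4, 24.3 and 21.5 RPKM in wild-type animals and 22.5, 18.7 and 22.3 RPKM in the mutants, and the genotypes overlapped (log2 fold change -0.04, limma adjusted p = 0.927). The ratio of *prx-5* to *prx-13* was 1.21, 1.39 and 1.27 in the wild-type libraries, against 2.801, 1.26 and 1.58 in the mutant ones. It overlapped between genotypes, with a difference in log2 ratio of RPKM + 1 of 0.42 (exact permutation p = 0.30, adjusted p = 0.375 over 5 pairs). Without mutant replicate 1 that difference was 0.11.

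Of the 3 RING genes, 2 had mutant libraries wholly below wild-type libraries and 1 did not. PRX-2 and PRX-12 work with PRX-10 in 1 ligase. *prx-12* lies on chromosome X from 11393294 to 11394619 and was at 10.2, 11.7 and 14.1 RPKM in wild-type animals and 8.90, 6.83 and 7.54 RPKM in the mutants. The mutant mean was 64.7% of the wild-type mean, and the log2 fold change was -0.57 (SE 0.17, limma adjusted p = 0.161). Without the 2 libraries that stood apart it was -0.67 (limma adjusted p = 0.040).
*prx-2* lies on chromosome IV from 11644129 to 11646322 and was at 4.26, 5.04 and 4.603 RPKM in wild-type animals and 3.47, 2.86 and 3.37 RPKM in the mutants. The libraries did not overlap (log2 fold change -0.41, SE 0.16, limma adjusted p = 0.301). This value carries a limit, because *prx-2* shares 426 of its 1026 annotated exon bases with ZK809.8 on the other strand, and whether the counting used strand is not given in the sources used here. ZK809.8 was at 138 to 150 RPKM in wild-type animals and 138 to 220 RPKM in the mutants.
*prx-10* lies on chromosome III from 5236404 to 5240383 and was at 12.5, 13.6 and 12.8 RPKM in wild-type animals and 15.2, 13.4 and 13.7 RPKM in the mutants. It was the steadiest of the peroxins across the mutant libraries (SD 6.87% of the mean), and its 95% interval was narrow, from -0.16 to 0.39, with a log2 fold change at 0.11 (limma adjusted p = 0.732). The direction was opposite, at -0.01, with library medians set equal or after quantile normalization.
Ratios within each library set *prx-2* and *prx-12* each beside *prx-10*. Both ratios share *prx-10*, whose libraries overlapped, so they largely repeat the values of the other gene. The pair *prx-2* to *prx-12* was not among the 5. *prx-2* stood at 0.340, 0.370 and 0.360 of *prx-10* in the wild-type libraries, against 0.228, 0.213 and 0.246 in the mutant ones. The ratio of *prx-10* to *prx-12* was 1.23, 1.16 and 0.904 in the wild-type libraries, against 1.71, 1.97 and 1.82 in the mutant ones. Neither ratio overlapped between genotypes. The differences in log2 ratio of RPKM + 1 were -0.53 and 0.68, and with 0.1 added they were -0.63 and 0.74 (with 1 added each at the smallest exact permutation p, 0.10, and adjusted p = 0.167 over 5 pairs).

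**Figure D2:**
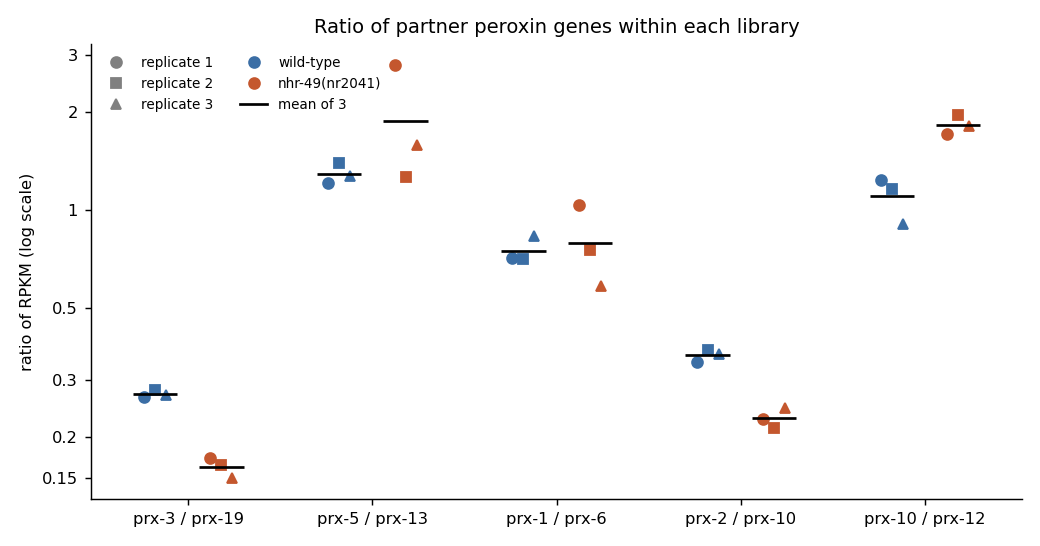
Ratio of the RPKM of 2 partner genes within each library, on a log axis, for the 5 pairs, with 1 point per library and the mean of each genotype as a line (n = 3). *prx-3* to *prx-19*, *prx-2* to *prx-10* and *prx-10* to *prx-12* separate the genotypes without overlap, while *prx-5* to *prx-13* and *prx-1* to *prx-6* overlap.

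Both ATPase genes of receptor recycling lay lower in every mutant library. *prx-6* lies on chromosome V from 4715388 to 4720093 and was at 6.27, 6.23 and 6.23 RPKM in wild-type animals, the tightest group of any peroxin (SD 0.355% of the mean). These values rest on 429, 424 and 384 recovered reads. Counting error alone is larger than that SD, so the closeness is no measure of how steady the gene is. In the mutants it was at 3.17, 4.17 and 4.48 RPKM, lowest in mutant replicate 1. The mutant mean was 63.1% of the wild-type mean (log2 fold change -0.56, SE 0.16, limma adjusted p = 0.153).
*prx-1* spans 14313927 to 14326726 on chromosome X and was at 4.46, 4.39 and 5.16 RPKM in wild-type animals and 3.28, 3.13 and 2.61 RPKM in the mutants. The mutant mean was 64.3% of the wild-type mean (log2 fold change -0.50, SE 0.16, limma adjusted p = 0.195). A pseudocount of 1 shrinks fold changes at these low levels, and on recovered reads limma voom gave -0.64 for *prx-1* and -0.67 for *prx-6* (adjusted p = 0.093 and 0.102).
PRX-1 and PRX-6 assemble into 1 ring-shaped motor. The ratio of *prx-1* to *prx-6* was 0.712, 0.704 and 0.829 in the wild-type libraries, against 1.03, 0.750 and 0.583 in the mutant ones. The wild-type ratios lay inside the mutant range. The difference in log2 ratio of RPKM + 1 was 0.06 (exact permutation p = 0.80, adjusted p = 0.80 over 5 pairs), and its direction was opposite without mutant replicate 1 (-0.11).

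*prx-11*, the gene for membrane growth and division of peroxisomes, was with *prx-5* the most variable across the mutant libraries (SD 34.7% and 36.1% of the mean). It lies on chromosome I from 12971615 to 12972259, inside the span of *gale-1* on the same strand but with no shared exon bases. It was at 15.2, 19.04 and 16.3 RPKM in wild-type animals and 22.5, 14.3 and 11.7 RPKM in the mutants. As for *prx-5*, mutant replicate 1 was the highest of the 6 libraries and the other mutant libraries were below the wild-type range. The log2 fold change was -0.10 (95% interval -0.63 to 0.43, limma adjusted p = 0.884).

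**Figure D3:**
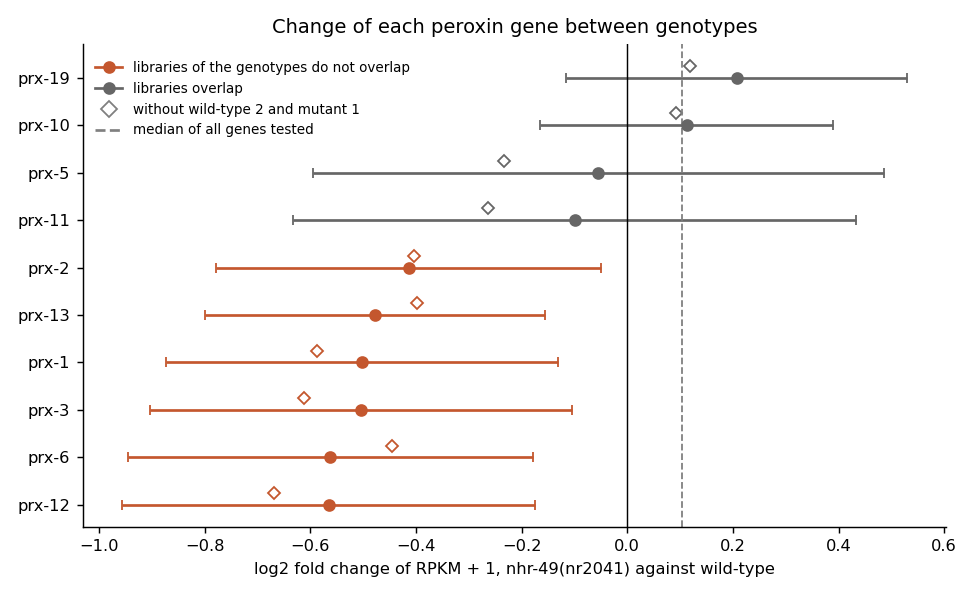
Log2 fold change of RPKM + 1 in *nhr-49(nr2041)* mutants against wild-type animals for each peroxin, as filled points with 95% intervals not adjusted for the number of genes (n = 3 per genotype), and open diamonds for the value without wild-type replicate 2 and mutant replicate 1. The 6 genes whose libraries do not overlap lie between -0.57 and -0.41, the other 4 have intervals that include 0, and the dashed line is the median of all genes tested, 0.10.

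For *prx-5*, *prx-11*, *prx-3* and *prx-19* the spread within a genotype followed the libraries that stood apart. This did not hold for every gene. The widest wild-type spread was that of *prx-12* (SD 16.7% of the mean). It ran from 84.7% of the mean in replicate 1 to 117.8% in replicate 3, with replicate 2 at 97.5%. In the mutants *prx-13* was highest in replicate 2, at 115% of the mean. Mutant replicate 1 was at 179% of the mean of the other mutant libraries for *prx-5*, 173% for *prx-11*, 145% for *prx-3* and 132% for *prx-19*. It was below them for *prx-6* (73.2%) and *prx-13* (89.7%). Mutant replicate 1 was the highest mutant library for 8 of the 10 genes, against 53.5% of all genes. Wild-type replicate 2 was at 121% of the mean of the other wild-type libraries for both *prx-5* and *prx-11*, 114% for *prx-3* and 110% for *prx-19*. It was the highest wild-type library for 7 of the 10, against 39.2% of all genes. Both held for 6 of the 10, against 28.6% of all genes. *prx-5* and *prx-11* kept step with each other, a pair chosen after their values were seen. Their ratio stayed between 0.946 and 1.15 over the 6 libraries, while the highest library exceeded the lowest 1.79-fold for *prx-5* and 1.91-fold for *prx-11*.
Without mutant replicate 1, 8 of the 10 genes had both remaining mutant libraries below every wild-type library, against 7.59% of all genes. The additional ones were *prx-5* and *prx-11*, with log2 fold changes of -0.32 and -0.35 (limma adjusted p = 0.391 and 0.414). With wild-type replicate 2 left out as well the count was again 8, against 15.8% of all genes. In that setting *prx-3* and *prx-12* passed limma and no other peroxin did, against 2.37% of all genes called lower. Of the 41 tissue markers 5 were called higher there and 3 lower, the latter being the 3 adult cuticle collagens, and their part in the peroxin values was not tested. Without mutant replicate 1 alone, *prx-3* was the only 1 of the 10 that passed, against 0.897% of all genes called lower.

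**Figure D4:**
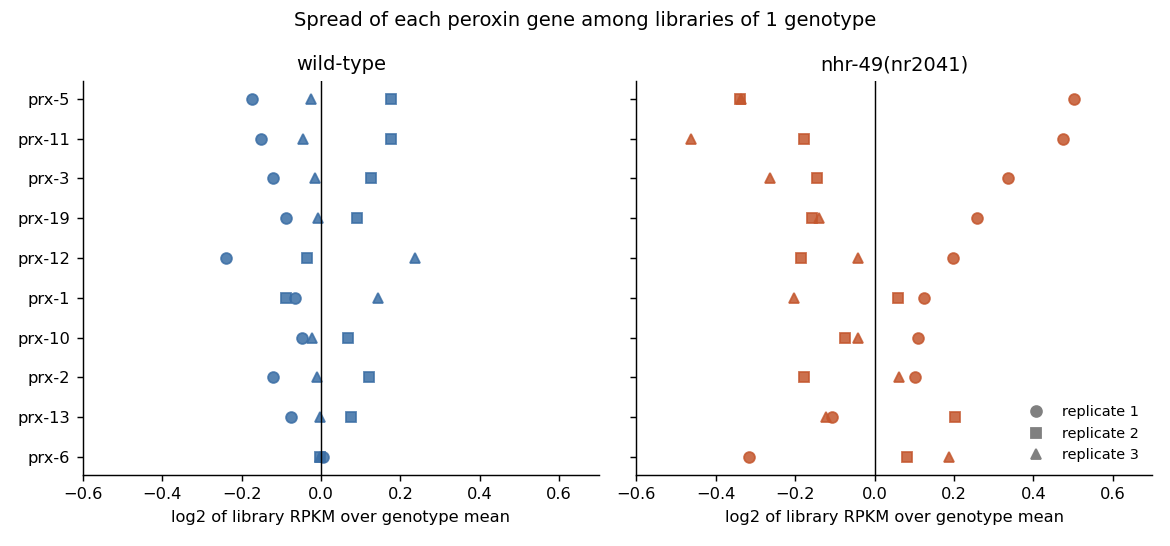
Log2 of each library's RPKM over the mean of its genotype for each peroxin, with wild-type libraries on the left and *nhr-49(nr2041)* libraries on the right (circle, square and triangle for replicates 1, 2 and 3). Mutant replicate 1 and wild-type replicate 2 lie to the right for *prx-5*, *prx-11*, *prx-3* and *prx-19*, and mutant replicate 1 lies to the left for *prx-6* and *prx-13*.

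Summed over the 10 genes, the level was 166, 191 and 180 RPKM in wild-type animals and 207, 156 and 153 RPKM in the mutants, and the genotypes overlapped. The 6 genes that did not overlap singly added up to 55.7, 62.7 and 62.7 RPKM in wild-type animals and 44.7, 40.0 and 37.9 RPKM in the mutants. Their share of the sum was 32.7% to 34.8% in wild-type animals and 21.6% to 25.6% in the mutants. These sums were formed after the genes had been picked by their libraries and describe them only.
The 6 genes were spread over chromosomes II, IV, V and X. *prx-1*, *prx-3* and *prx-12* are the peroxin genes on X, and for 5.16% of the tested genes on X the mutant libraries lay wholly below, against 2.90% to 4.54% on the other chromosomes. By wild-type level, 2.78% of genes from 10 to 20 RPKM, which include 6 of the peroxins, had mutant libraries wholly below, as did 2.68% of genes from 1 to 5 RPKM, which include *prx-1* and *prx-2*.
Within 1500 bases of the 10 genes lay 15 other tested genes. By limma 0 of them were called, 2 had an unadjusted p under 0.05 and limma voom called 1, and 2 of the 15 log2 fold changes were below 0. Those below 0 were *eif-6*, upstream of *prx-11*, at -0.34, and ZK809.1, upstream of *prx-2*, at -0.24. Upstream on the same strand as a peroxin lay 5 of the 15. The other 3 of these were *mrps-26*, 39 bases from *prx-10*, at 0.21, *lsm-4*, 216 bases from *prx-13*, at 0.12, and *prmn-1*, 517 bases from *prx-12*, at 0.07.

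Enzymes that peroxins import were set beside them. Among the matrix β-oxidation genes, 9 were tested, 5 fell and 1 rose, and their median log2 fold change was -0.80. *daf-22*, the thiolase of ascaroside synthesis, was at 109, 137 and 122 RPKM in wild-type animals and 39.5, 48.5 and 42.3 RPKM in the mutants (log2 fold change -1.47, limma adjusted p = 4.62e-04). *maoc-1*, a peroxisomal hydratase gene, was at 55.7, 83.9 and 65.4 RPKM in wild-type animals and 24.6, 17.1 and 16.9 RPKM in the mutants (log2 fold change -1.75, limma adjusted p = 0.0019). F58F9.7, the acyl-CoA oxidase gene that RefSeq names *acox-3*, was at 26.1, 34.8 and 31.7 RPKM in wild-type animals and 10.99, 8.99 and 8.63 RPKM in the mutants (log2 fold change -1.59, limma adjusted p = 7.86e-04). *ech-9*, an enoyl-CoA hydratase gene, rose from 0.990, 1.91 and 1.52 RPKM to 28.9, 19.04 and 16.2 RPKM (log2 fold change 3.15, limma adjusted p = 2.68e-04). The other falls were those of *dhs-28* and *acox-1*, whose calls were lost in 4 and 6 of 16 alternative settings. Both are given with their values known. The list leaves out 3 oxidase rows, *acox-2*, *acox-3* and *acox-5*, whose older symbols could not be paired with current names. The row *acox-2* was at 97.2, 98.1 and 97.9 RPKM in wild-type animals and 27.8, 48.9 and 44.5 RPKM in the mutants (log2 fold change -1.29, limma adjusted p = 0.011). The rows *acox-3* and *acox-5* had log2 fold changes of 0.71 and 0.49 and did not pass (limma adjusted p = 0.163 and 0.325). With these 3 rows, 6 of 12 fell and 1 rose, and the median was -0.77.
Of the 5 genes tested for ether lipid synthesis, catalase and matrix proteolysis, 1 fell and 1 rose. *lonp-2* (Y75B8A.4), the peroxisomal Lon protease that clears damaged matrix proteins, was at 16.2, 18.2 and 20.0 RPKM in wild-type animals and 8.87, 8.11 and 6.53 RPKM in the mutants (log2 fold change -1.12, limma adjusted p = 0.0052). This call held in all 16 alternative settings. *fard-1*, a reductase gene of ether lipid synthesis, was at 48.3, 50.9 and 53.0 RPKM in wild-type animals and 71.1, 66.7 and 71.7 RPKM in the mutants (log2 fold change 0.45, limma adjusted p = 0.049), a call lost in 10 of 16 alternative settings.
None of the 5 peroxisomal ABC transporter genes *pmp-1* to *pmp-5* passed limma (0 of 5, with 2 at an unadjusted p under 0.05 and 1 called by limma voom), and their median was 0.01. That median spans opposite values, given with their values known. *pmp-5* lay lower in every mutant library (log2 fold change -0.58, limma adjusted p = 0.063) and *pmp-1* higher in every one (0.53, limma adjusted p = 0.119). *pmp-5* was called by limma voom (adjusted p = 0.043) and by limma after quantile normalization (adjusted p = 0.018). None of the 5 division genes passed limma either (0 of 5, with 1 at an unadjusted p under 0.05 and 0 by limma voom). The median of the latter, which are shared with mitochondria, was 0.28 where that of all genes was 0.10. Without mutant replicate 1 the log2 fold change of *mff-2* turned from 0.22 to -0.03, and without wild-type replicate 2 as well that of *fis-1* turned from 0.34 to -0.09. Whether the lists differ from the peroxins was not tested.

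**Figure D5:**
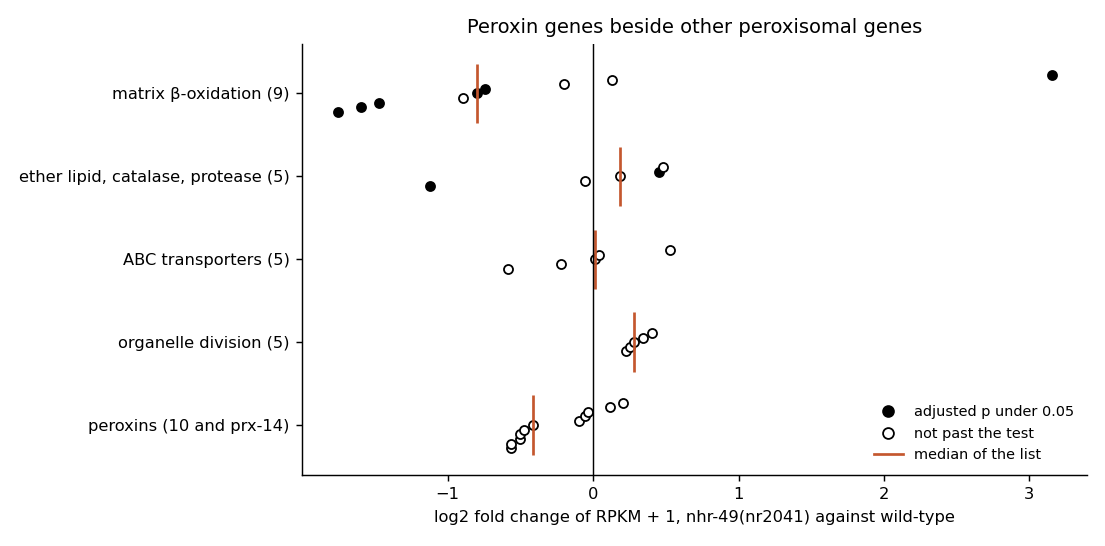
Log2 fold change of RPKM + 1 for the peroxins with *prx-14* and for 4 other lists of peroxisomal genes, with 1 point per gene, filled where limma's adjusted p was under 0.05, and the list median as a vertical line. None of the peroxins is filled, 6 of the 9 matrix β-oxidation genes are, and *ech-9* lies far to the right at 3.15.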

How the data were processed

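PolyA RNA of 6 whole-animal samples was sequenced as paired ends. The authors deposited RPKM for every gene in each library, with a mean per genotype that equals the library mean to a relative 3.2e-14 and was not used further. The submitters' notes name WBcel235. The study names CLC Genomics Workbench for its statistics. The mapper's settings, the use of strand and the annotation release were not found in the sources read. Because RPKM are not counts, genotypes were compared with limma 3.58.1 (eBayes with trend and robust, statmod 1.5.0, R 4.3.3) in place of the Baggerly's test of the study. The test was two-sided on log2(RPKM + 1), with genotype as the only term and Benjamini-Hochberg adjustment over the 13965 genes that reached 1 RPKM in 3 or more of the 6 libraries. A gene was called at an adjusted p under 0.05.

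Reads that are whole within 0.01 could be computed back for all 19579 genes with a value above 0, as the smallest whole gene length that gave whole reads in all libraries, and came to 95.4% to 97.9% of the implied library totals. They entered limma voom only. Ratios of RPKM + 1 of 5 gene pairs were compared by exact permutation on the log2 scale. Coordinates and exons came from Ensembl release 115, matched by name for 88.1% of tested genes. Rows named by sequence name were matched through RefSeq, and *acox-1.2*, *acox-1.3* and *acox-1.5* could not be matched, so 3 rows under older oxidase symbols stayed out of the list. Tables and figures were made with pandas 2.3.3, scipy 1.17.1, numpy 2.4.6 and matplotlib 3.10.9 under Python 3.11.15. The limma step was tested on simulated reads, with changes larger than those of the peroxins and no libraries that stood apart. That test does not show how often changes of the peroxins' size would be called. The members, lists and alternatives were chosen with earlier results of these data known. Named genes are the 10 peroxins, *prx-14*, *nhr-49* as the check of the labels, and up to 4 genes per other list with the smallest adjusted p under 0.05. Beyond the term biological replicates in the study's methods, the sources read do not say how cultures were kept apart. The p-values therefore set the difference between genotypes against the spread between these samples only.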

Additional observations from a re-analysis of the deposited data

How the results depend on the processing

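The alternatives were quantile normalization, library medians set equal, pseudocounts of 0.1 and 0.5, no filter, at least 5 RPKM, a replicate block, eBayes without trend and robust, limma voom, each library left out and 2 libraries left out together. The count of peroxins called lower was 0 in all but 2 of them. Leaving out 1 library it ranged from 0 to 1, and without wild-type replicate 2 and mutant replicate 1 together it was 2. No peroxin was called higher in any setting. The count with mutant libraries wholly below ranged from 6 to 8 leaving out 1 library. The other peroxisomal genes called higher were 2, and 1 after quantile normalization, with library medians set equal, with no filter, with the replicate block and in eBayes without trend and robust. They ranged from 1 to 2 leaving out 1 library and were 5 without both libraries. The other peroxisomal genes called lower were 6, and 7 after quantile normalization, with library medians set equal and in limma voom. They were 5 with no filter and with the replicate block. Leaving out 1 library they ranged from 4 to 6, and they were 8 without both libraries. Directions turned as follows. *prx-10* had a log2 fold change of -0.0137 after quantile normalization and -0.0138 with library medians set equal. Leaving out 1 library, the log2 fold change ranged from -0.32 to 0.0785 for *prx-5*, from -0.35 to 0.0914 for *prx-11* and from -0.11 to 0.0460 for *prx-14*. The difference in log2 ratio of *prx-1* to *prx-6* ranged from -0.11 to 0.21 leaving out 1 library and was -0.14 without both libraries. The cause was not tested. With at least 5 RPKM, *prx-1* and *prx-2* were not tested. Deviations of same-numbered libraries had correlations of -0.33, -0.16 and 0.34, against 0.42 for wild-type replicate 2 with mutant replicate 1. With 3 libraries per genotype, these cannot settle whether the numbers pair the samples. With the replicate block 396 genes were called in place of 577, with 0 peroxins among them, as without it. The count of all genes called ranged from 195 to 613 leaving out 1 library and was 413 with at least 5 RPKM and 1036 without both libraries. With 3 libraries per genotype, the log2 fold changes of -0.57 to -0.41 did not pass the test over all genes.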
